A study of Homo sapiens with 6 samples.

Results

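The genes described here are 37 chaperones, folding enzymes, quality-control factors and stress sensors of the endoplasmic reticulum (ER), taken as a fixed list of gene symbols. They were read in TF-1, a human leukaemia cell line that depends on a cytokine, in 3 arrays of cells transfected with a control vector, labelled pEGFP, and 3 arrays of cells transfected with the human PRL-3 gene, the phosphatase gene PTP4A3. All cells were grown in medium with serum and human interleukin-3; the sources used here do not give whether each group was a pool or a single clone. Each value was the log2 of 1 deposited probe set intensity; of genes with several probe sets the brightest over all 6 arrays was used. Of the 37 genes, 35 were measured, among 18377 genes in all. ATF6B and PDIA3 lay only on probe sets annotated to several genes and were left out of the counts. In a limma fit over all probe sets those of PDIA3 differed by 0.20 and 0.16 (log2, adjusted p = 0.466 and 0.609). Those of ATF6B differed by 0.039 and 0.031 (adjusted p = 0.951 and 0.962, limma).

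Proteins destined for the cell surface, for secretion or for the organelles of the secretory route fold in the ER. When unfolded proteins build up there, the unfolded protein response sets in through the membrane sensors ATF6, IRE1 (encoded by ERN1) and PERK (encoded by EIF2AK3). Cleaved ATF6 and the spliced form of XBP1, which IRE1 makes, switch on chaperones such as BiP (encoded by HSPA5) and the genes that return misfolded proteins to the cytosol for degradation. The arrays measured transcript amounts; splicing of XBP1, cleavage of ATF6 and phosphorylation of the sensors were not read by them.

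With PRL-3, 2 of the 35 genes rose, 1 fell and 32 did not pass the test. The 2 that rose were HERPUD1, an ER membrane protein of the degradation machinery, 1.42-fold higher, and ERO1B, an oxidase that drives disulfide bond formation, 1.38-fold higher. DERL2, a derlin of the same degradation machinery, was 1.29-fold lower. A gene passed where limma, fitted over all 18377 genes, gave a two-sided Benjamini-Hochberg adjusted p under 0.05. Rises in 2 of 35 genes are 5.71%, where 4.58% of all genes rose, and the fall in 1 of 35 is 2.86%, where 3.11% of all genes fell, so both shares lay near the background; in either direction 7.69% of all genes passed. The difference was above 0 in 22 of the 35 genes (62.9%), where it was above 0 in 45.1% of all genes. The median difference over the 35 genes was 0.04 on the log2 scale, against -0.015 over all genes. The listed genes were bright, with a median level at percentile 85.4 of all genes. The share above 0 was not taken among genes of similar level. Among genes above the median level, 2 of 31 listed genes rose and 1 fell, beside 594 and 456 of 9188 genes in all.

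The calls were small in size and changed with the arrays included. No gene of the list differed by more than 1 on the log2 scale, and 6 of 35 (17.1%) differed by more than 0.3, where 12.2% of all genes did. Without control 2, without PRL-3 4 or without PRL-3 6, 0 genes of the list passed in limma in either direction. An unadjusted p under 0.05 was found for 8, 7 and 7 of the 35 genes. On all arrays it was found for 11 of the 35, beside 3704 of all 18377 genes. The matching counts over all genes without these arrays are not given here, so no excess in the list can be read from them. Calls were lost over all genes too. On all arrays 842 rose and 571 fell, and in these fits, in the same order, 388 and 178, 405 and 199, and 431 and 228. With array weights 8 rose and 2 fell, where 2122 of all 18377 genes rose and 2303 fell. With an unequal-variance test of each gene alone 0 passed. There 7 of the 35 had an unadjusted p under 0.05, and the matching count over all genes is not given here. That test called only 7 higher and 4 lower of all 18377 genes, so its 0 tells little about the list. Whether replicate arrays stem from separate cultures is not in the labels, and the p-values therefore cover only array-to-array spread, possibly technical.

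**Figure D1:**
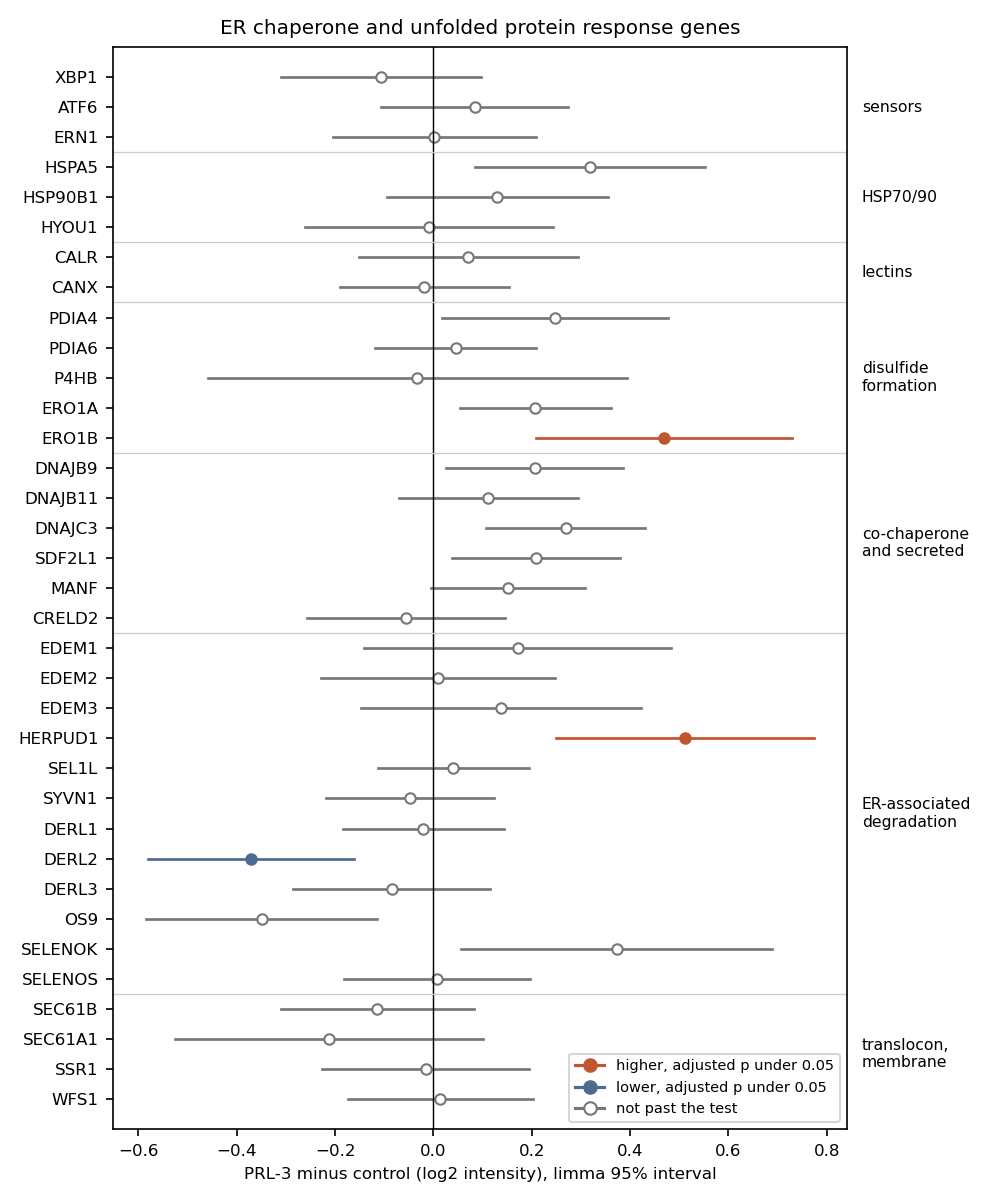
Difference between PRL-3 and control arrays (log2 intensity, horizontal axis) for the 35 measured genes, in blocks by role, with limma's 95% interval (3 arrays a group). ERO1B (0.47) and HERPUD1 (0.51) are the filled points to the right and DERL2 (-0.37) the filled point to the left; open points did not pass the test.

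The transfected gene was checked first. PTP4A3 read 7.92, 8.03 and 7.97 in controls 1 to 3 and 10.81, 10.93 and 10.79 in PRL-3 arrays 4 to 6 (log2 intensity), 7.33-fold higher with PRL-3. TF-1 is of myeloid and erythroid character, and the progenitor gene CD34 (10.28 in control, 9.84 in PRL-3 arrays) and the erythroid factor gene GATA1 (8.14 and 8.06) were read in both groups (log2 mean, 3 arrays each); the table gave no detection call. Median intensity was 92.9 in control 3 and ran from 89.8 to 90.6 in the other arrays. The highest intensity was 9825 in control 3 and ran from 11565 to 12182 in the others. Correlations between arrays over all genes were 0.9861 to 0.9964 within groups and 0.9774 to 0.9863 between them. Control 1 and PRL-3 5 were both the highest arrays of their groups in 23.7% of all genes and both the lowest in 20.9%. Called genes of the list, with some of the further genes, are also given without both. Of 7 measured progenitor and myeloid markers 2 rose (KIT and CSF2RA), with summed intensities of 2663 to 3615 in control and 2767 to 3558 in PRL-3 arrays. Of 10 measured erythroid markers 6 fell and 0 rose, and their summed intensity ran from 9747 to 10147 in control and from 6300 to 6406 in PRL-3 arrays. Of 6 eosinophil and mast cell markers 2 rose and 1 fell, with sums of 467 to 507 and 717 to 779. Of 8 plasma cell markers, a cell type with a large ER, 0 passed, with sums of 513 to 552 and 537 to 557. For T and B cells 0 of 7 measured markers passed (sums 392 to 424 and 404 to 427), and for fibroblasts and epithelium 0 of 9 (820 to 900 and 831 to 906). Over these last 3 lists 0 genes reached an unadjusted p under 0.05 in limma. Of all genes, 4.58% rose and 3.11% fell. In such bulk RNA fewer cells of a type and less RNA per cell cannot be told apart, and the part of these shifts in the results on ER genes was not tested.

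The promoters of the 3 called genes and of HSPA5, the classical target of the response, are shown because the response acts through known DNA elements close to the start of transcription. The windows run from 250 bases before to 50 bases after the annotated start, 5′ to 3′ on the gene's strand, from RefSeq on GRCh38.p14: ERO1B at chr1:236281909-236282208 (minus strand), HERPUD1 at chr16:56931892-56932191 (plus strand), DERL2 at chr17:5486129-5486428 (minus strand) and HSPA5 at chr9:125241294-125241593 (minus strand). Capitals mark the fixed letters of exact matches, on either strand, to 4 motifs: the ER stress response element, ERSE (CCAAT, 9 free bases, then CCACG), its second form ERSE-II (ATTGG, 1 free base, then CCACG), the unfolded protein response element, UPRE (TGACGTGG), and the composite C/EBP-ATF element, CARE (TGATGNAAN).
ERO1B: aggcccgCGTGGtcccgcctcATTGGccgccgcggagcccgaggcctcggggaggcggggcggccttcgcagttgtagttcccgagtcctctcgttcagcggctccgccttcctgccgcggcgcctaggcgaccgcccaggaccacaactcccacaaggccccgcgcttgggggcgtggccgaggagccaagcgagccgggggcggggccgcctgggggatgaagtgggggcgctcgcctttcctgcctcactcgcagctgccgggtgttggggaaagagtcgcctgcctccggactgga
HERPUD1: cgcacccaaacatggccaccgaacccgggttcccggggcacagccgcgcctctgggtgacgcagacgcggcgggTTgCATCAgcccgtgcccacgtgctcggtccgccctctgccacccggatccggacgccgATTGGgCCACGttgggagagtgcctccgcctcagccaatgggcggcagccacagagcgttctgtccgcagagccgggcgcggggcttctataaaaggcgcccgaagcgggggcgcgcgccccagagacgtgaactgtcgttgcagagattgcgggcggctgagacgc
DERL2: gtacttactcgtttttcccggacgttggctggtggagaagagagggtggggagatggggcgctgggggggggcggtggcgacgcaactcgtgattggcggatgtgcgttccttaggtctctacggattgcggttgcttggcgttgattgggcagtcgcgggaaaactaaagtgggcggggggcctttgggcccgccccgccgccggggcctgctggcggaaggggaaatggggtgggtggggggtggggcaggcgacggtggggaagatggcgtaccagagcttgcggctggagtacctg
HSPA5: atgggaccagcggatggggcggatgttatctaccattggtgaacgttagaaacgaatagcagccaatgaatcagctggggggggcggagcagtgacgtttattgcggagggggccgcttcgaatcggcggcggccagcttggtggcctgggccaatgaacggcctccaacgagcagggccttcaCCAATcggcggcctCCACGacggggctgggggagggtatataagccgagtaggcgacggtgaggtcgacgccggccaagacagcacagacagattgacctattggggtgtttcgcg
ERO1B held 1 ERSE, read on the opposite strand, at -243 to -225 from the start. HERPUD1 held an ERSE-II at -117 to -107 and a CARE, read on the opposite strand, at -177 to -169. HSPA5 held 1 exact ERSE at -66 to -48, and DERL2 held 0 of these letters in its window.

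Windows were found for 34 of the 37 genes, 41 windows in all since some genes have several starts; PDIA3, DERL1 and DERL3 had none. The list includes well-known targets of the response, so the shares of these elements are a description and not a test. The exact ERSE stood in 8 of 34 genes (23.5%), against 19 of 14210 tested genes with a window (0.134%) and 0.0769% of all 35116 windows. The ERSE-II stood in 3 of 34 genes (8.82%), against 17 of 14210 tested genes (0.12%) and 0.0541% of all windows. The sites are shown as each motif reads, 5′ to 3′, with the fixed letters in capitals and the free letters in lower case. The ERSE sites were these.
XBP1 chr22:28800603-28800621: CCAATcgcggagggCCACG
HSPA5 chr9:125241391-125241409: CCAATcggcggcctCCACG
HSP90B1 chr12:103930216-103930234: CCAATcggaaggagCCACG
HSP90B1 chr12:103930321-103930339: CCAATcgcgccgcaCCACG
CALR chr19:12938384-12938402: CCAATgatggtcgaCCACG
CANX chr5:179698778-179698796: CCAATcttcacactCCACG
PDIA6 chr2:10812853-10812871: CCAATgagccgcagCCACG
ERO1B chr1:236282183-236282201: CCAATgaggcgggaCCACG
CRELD2 chr22:49918554-49918572: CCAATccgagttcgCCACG
The 9 sites differ in their 9 free letters, and HSP90B1 carried a pair of them. CANX has 4 annotated starts, and the same site lay in 3 of its windows. The ERSE-II sites were these.
HYOU1 chr11:119057380-119057390: ATTGGaCCACG
HYOU1 chr11:119057274-119057284: ATTGGaCCACG
SDF2L1 chr22:21642114-21642124: ATTGGtCCACG
HERPUD1 chr16:56932025-56932035: ATTGGgCCACG
HYOU1, which encodes a large chaperone of the HSP70 family, also held the only UPRE of the list, at chr11:119057386-119057393, which overlaps its first ERSE-II site, and HERPUD1 held the only CARE, at chr16:56931965-56931973. In all windows a UPRE was found in 0.729% and a CARE in 3.61%.

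Of the 8 ERSE genes 1 passed the test (ERO1B) and 5 lay above 0; of the 3 ERSE-II genes 1 passed (HERPUD1) and 2 lay above 0. Of all genes 7.69% passed in either direction and 45.1% lay above 0, and so few carriers allow no reading against these shares. The ERSE genes ran from -0.11 for XBP1 and -0.06 for CRELD2 to 0.32 for HSPA5 and 0.47 for ERO1B (log2 difference).

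**Figure D2:**
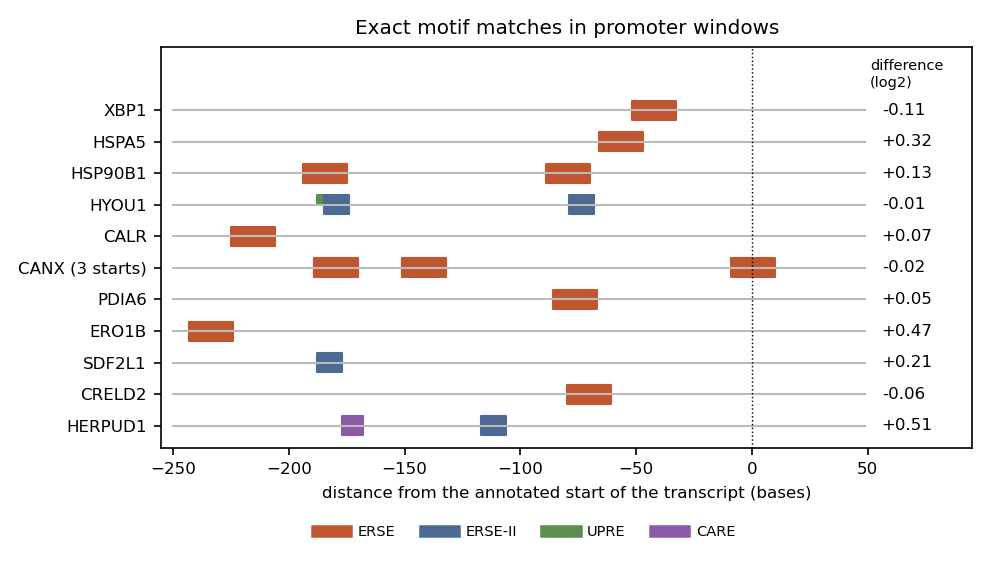
Exact matches to the 4 motifs (coloured bars) in the promoter windows of the 11 genes that hold at least 1, by distance from the annotated start (bases, horizontal axis), with each gene's log2 difference between PRL-3 and control at the right. The ERSE of HSPA5 begins at -66 and that of ERO1B at -243; the CANX bars are 1 site seen from 3 starts.

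Among the sensors and transcription factors 0 of 3 measured genes passed, and none of the 3 reached an unadjusted p under 0.05 in limma. ERN1 read 7.39, 7.17 and 7.17 in control and 7.13, 7.34 and 7.27 in PRL-3 arrays (log2 intensity), so the groups overlapped throughout. Its difference was 0.0018 (95% interval -0.20 to 0.21, adjusted p = 0.994, limma). XBP1 read 8.80, 8.77 and 8.61 in control and 8.49, 8.67 and 8.71 in PRL-3 arrays, with control 1 and control 2 above all the others. The XBP1 difference of -0.11 had an interval of -0.31 to 0.097 and adjusted p = 0.598 in limma. ATF6 read 9.60, 9.67 and 9.72 in control and 9.84, 9.61 and 9.78 in PRL-3 arrays. PRL-3 5 was the lowest PRL-3 array for ATF6 and lay among the controls (difference 0.08, interval -0.11 to 0.27, adjusted p = 0.669, limma).

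The main chaperones did not pass, though HSPA5 differed more than its relatives. HSPA5 encodes BiP, the HSP70 chaperone of the ER that also holds the sensors inactive. It read 11.09, 11.11 and 10.76 in control and 11.30, 11.36 and 11.26 in PRL-3 arrays (log2 intensity). All 3 PRL-3 arrays lay above all 3 controls, and control 3 lay well below the other controls. The difference was 0.32 ± 0.10 (log2, SE, interval 0.085 to 0.55), 1.25-fold, with adjusted p = 0.113 in limma. Without control 3 it was 0.21 (adjusted p = 0.145), and over the 16 alternatives the adjusted p ran from 0.051 to 0.442. HSP90B1, which encodes GRP94, the HSP90 of the ER, read 11.83, 11.96 and 12.12 in control and 12.14, 11.96 and 12.20 in PRL-3 arrays. PRL-3 5 lay within the control range (difference 0.13, interval -0.094 to 0.35, adjusted p = 0.55, limma). HYOU1, which serves BiP as an exchange factor, differed by -0.0087 with an interval of -0.26 to 0.24. The lectin chaperones CALR and CANX, which hold glycoproteins during folding, differed by 0.07 and -0.02 (adjusted p = 0.775 and 0.939, limma).

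Among the enzymes of disulfide formation 1 of 5 measured genes rose (20%, against 4.58% of all genes). ERO1B read 7.35, 7.43 and 7.52 in control and 7.91, 7.68 and 8.11 in PRL-3 arrays (log2 intensity). The groups did not overlap, and PRL-3 5 came closest to the controls. The difference was 0.47 ± 0.11 (log2, SE), with adjusted p = 0.0444 in limma. It was 0.54 without both control 1 and PRL-3 5 (adjusted p = 0.0217, limma). The call was lost without control 1 (adjusted p = 0.122), control 2 (0.156), PRL-3 4 (0.148) or PRL-3 6 (0.131, with a difference of 0.36). It was also lost after quantile normalization (0.0644), with an intensity trend and robust variances (0.0522), with an offset of 32 before the log (0.0631) and with the unequal-variance test (0.347). With 1 array left out the ERO1B difference ran from 0.36 to 0.58. ERO1A, the more widely expressed oxidase of the pair, read 8.50, 8.48 and 8.57 in control and 8.68, 8.70 and 8.77 in PRL-3 arrays. Its groups did not overlap either and its spread within groups was the smallest of the list (SD 0.048), with a difference of 0.21 ± 0.067 and adjusted p = 0.114 in limma. ERO1A passed with array weights only (adjusted p = 0.0109). Of the isomerases that ERO1 proteins recharge, PDIA4 differed by 0.25 (adjusted p = 0.212), PDIA6 by 0.05 (adjusted p = 0.811) and P4HB by -0.03 (adjusted p = 0.959, limma). P4HB had the widest spread within groups (SD 0.306), with control 1 and PRL-3 5 highest. Its other probe set read 0.18 higher with PRL-3 and did not pass either (adjusted p = 0.695 over all single-symbol probe sets, limma).

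The co-chaperones and small ER stress proteins lay mostly above 0 without a call. Of 6 genes 0 passed, 5 differences were above 0, and in 4 (DNAJB9, DNAJC3, SDF2L1 and MANF) all PRL-3 arrays lay above all controls. Over all genes 45.1% of differences were above 0, and in 12.1% all PRL-3 arrays lay above all controls. DNAJC3, a BiP co-chaperone that also restrains PERK, read 8.90, 8.83 and 8.90 in control and 9.16, 9.06 and 9.22 in PRL-3 arrays (log2 intensity). The gap between the lowest PRL-3 array and the highest control was wider than the range of the controls. The difference of 0.27 ± 0.07 (1.20-fold) had adjusted p = 0.0593 in limma, and passed with array weights (0.00244) and with an offset of 32 before the log (0.0367). DNAJB9, which encodes ERdj4, a J protein that the XBP1 arm induces, read 6.29, 6.19 and 6.37 in control and 6.49, 6.40 and 6.57 in PRL-3 arrays. The lowest DNAJB9 value with PRL-3 lay just above control 3 (difference 0.21, interval 0.025 to 0.39, adjusted p = 0.183, limma). SDF2L1, a partner of ER J proteins, and MANF, a small secreted protein of stressed cells, differed by 0.21 (adjusted p = 0.155) and 0.15 (adjusted p = 0.267, limma). DNAJB11, another J protein that serves BiP, differed by 0.11 and CRELD2 by -0.06, with overlapping groups.

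**Figure D3:**
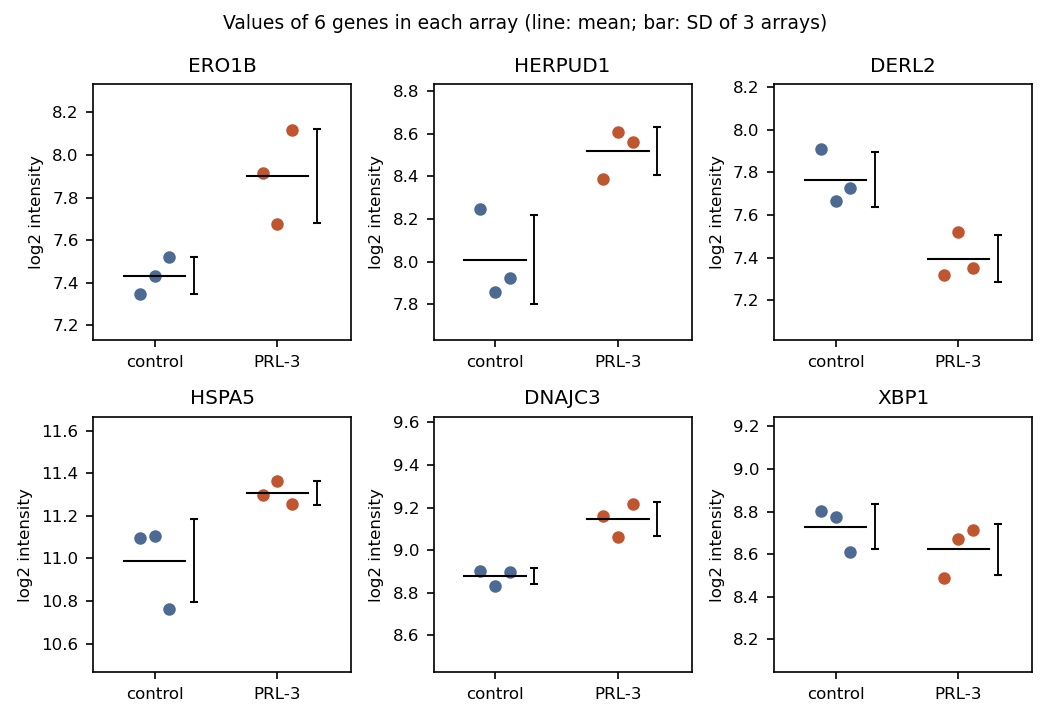
Log2 intensity (vertical axis, the same span in each panel) of ERO1B, HERPUD1, DERL2, HSPA5, DNAJC3 and XBP1 in each of 3 control and 3 PRL-3 arrays, with the mean (line) and SD (bar). The groups are apart in the first 5 genes and overlap in XBP1; control 3 of HSPA5 lies at 10.76, below the other controls.

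In ER-associated degradation, where misfolded proteins are recognised, drawn out of the ER and marked with ubiquitin, 1 of 12 genes rose and 1 fell. Each is 8.33%, where 4.58% of all genes rose and 3.11% fell. HERPUD1, which helps to assemble the ubiquitin ligase complex around HRD1, read 8.25, 7.86 and 7.92 in control and 8.39, 8.61 and 8.56 in PRL-3 arrays (log2 intensity). The groups did not overlap, and control 1 lay closest to the PRL-3 arrays. The difference was 0.51 ± 0.11 (log2, SE), with adjusted p = 0.0332 in limma, and 0.59 without both control 1 and PRL-3 5 (adjusted p = 0.0133). The call held without control 1 (adjusted p = 0.0116) and was lost without control 2 (0.141), control 3 (0.0657), PRL-3 4 (0.0676), PRL-3 5 (0.0762) or PRL-3 6 (0.123). The HERPUD1 difference ran from 0.43 to 0.63 with 1 array left out. DERL2, thought to form part of the exit channel, went the other way. It read 7.91, 7.66 and 7.73 in control and 7.32, 7.52 and 7.35 in PRL-3 arrays. All PRL-3 arrays lay below all controls, and PRL-3 5 lay nearest to them. The DERL2 difference of -0.37 ± 0.091 had adjusted p = 0.0462 in limma. This call held without PRL-3 5 (adjusted p = 0.0355) and was lost without control 1 (0.127), control 2 (0.097), control 3 (0.0595), PRL-3 4 (0.178) or PRL-3 6 (0.161). With 1 array left out the difference ran from -0.43 (without PRL-3 5) to -0.30 (without control 1). After each array was shifted to 1 median the adjusted p of DERL2 was 0.0626, with the intensity trend 0.066, with the offset 0.0533 and with the unequal-variance test 0.244. HERPUD1 kept its call in the first 3 of these and lost it in the last (0.296).

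The ligase itself and its closest partners did not pass. SYVN1, the gene of HRD1, differed by -0.05 (interval -0.22 to 0.12) and SEL1L, its scaffold, by 0.04 (interval -0.11 to 0.19). The other derlins, DERL1 and DERL3, differed by -0.02 and -0.09. OS9, a lectin that brings glycoproteins to the ligase, read 9.15, 8.94 and 8.76 in control and 8.57, 8.67 and 8.56 in PRL-3 arrays (log2 intensity). All PRL-3 arrays lay below all controls, but control 3 came close to PRL-3 5. The OS9 difference of -0.35 ± 0.10 had adjusted p = 0.0857 in limma, and passed without control 3 (-0.44, adjusted p = 0.0258). SELENOK, a selenoprotein that binds derlins, read 7.56, 7.96 and 8.01 in control and 8.32, 8.01 and 8.33 in PRL-3 arrays. Control 3 and PRL-3 5 differed only beyond the second decimal, so the groups barely separated, and the difference of 0.37 had an interval of 0.057 to 0.69 (adjusted p = 0.168, limma). Without control 1 it was 0.23. SELENOS, another selenoprotein of the machinery, differed by 0.0076. EDEM1, EDEM2 and EDEM3, which trim mannose from glycoproteins that fail to fold, differed by 0.17, 0.0088 and 0.14, all with adjusted p of at least 0.575 in limma. Without control 3, where EDEM1 read 6.86, its difference was 0.012.

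Of the translocon, the channel through which new chains enter the ER, and of other ER membrane proteins 0 of 4 genes passed and none reached an unadjusted p under 0.05 in limma. SEC61A1 and SEC61B, subunits of the channel, differed by -0.21 (interval -0.52 to 0.10) and -0.11 (interval -0.31 to 0.082). The SEC61A1 difference was -0.10 without control 1 and -0.34 without PRL-3 5. SSR1, a subunit of the translocon-associated complex TRAP, differed by -0.02 and WFS1, the gene of Wolfram syndrome, by 0.014.

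Across the 35 genes the PRL-3 arrays lay wholly above the controls in 9 (25.7%), where 12.1% of all genes did so, and wholly below in 2 (5.71%), where 12.2% of all genes did. The 9 were HSPA5, ERO1A, ERO1B, DNAJB9, DNAJC3, SDF2L1, MANF, HERPUD1 and SELENOK, and the 2 were DERL2 and OS9. At an unadjusted p under 0.05 in limma, 9 genes lay above 0, where 10.6% of all genes did, and 2 below, where 9.6% of all genes did. The genes were chosen with earlier results of these data known, so these counts are a description. The shares of all genes beside them were not taken among genes of similar level. Control 3 was the lowest control in 18 of 35 genes (51.4%), where this held for 37.7% of all genes. The median difference over the 35 genes was 0.0195 without control 3, 0.0785 without control 2 and 0.04 on all arrays. The part of control 3 in the counts above was not tested. Control 1 and PRL-3 5 were both highest of their groups in 10 genes (28.6%, against 23.7% of all genes), among them P4HB, SEC61A1, HERPUD1, DERL2 and OS9, and both lowest in 6 (17.1%, against 20.9%), namely ATF6, HSP90B1, ERO1B, EDEM3, SELENOK and SSR1. Without both arrays the same 3 genes, ERO1B, HERPUD1 and DERL2, passed in limma. The SD within groups ran from 0.048 to 0.306 over the 35 genes, with a median of 0.112, against a median of 0.106 over all genes.

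**Figure D4:**
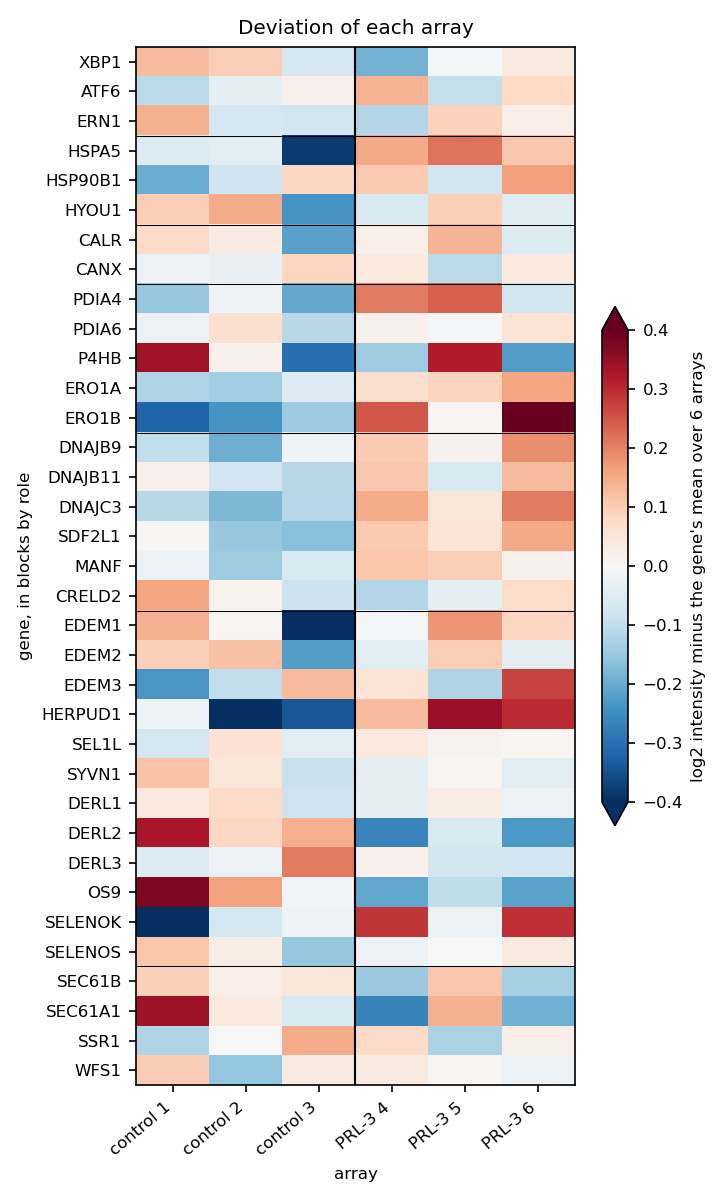
Log2 intensity of the 35 genes in each of the 6 arrays (horizontal axis) minus the gene's mean over all arrays, in blocks by role; red is above and blue below the mean. ERO1B, ERO1A and DNAJC3 are blue in all 3 control columns, DERL2 is red there, and P4HB and SEC61A1 are reddest in control 1 and PRL-3 5.

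Of 116 further genes of the same pathways, 109 were measured, of which 8 rose (7.34%, against 4.58% of all genes) and 1 fell (0.917%, against 3.11%). Their median difference was 0.019, and 51.4% of their differences lay above 0. The others had no probe set with a single symbol and were not analysed here. The 8 that rose are spread over 4 of the 7 lists. Without control 2, PRL-3 4 or PRL-3 6 the count was 3, while the count over all genes went from 842 to 388, 405 and 431. These further genes were bright, with a median level at percentile 82.1 of all genes. Among genes above the median level, 6 of 91 further genes rose, beside 594 of 9188 genes in all, so these shares lay close together. There 1 further gene fell, beside 456 genes in all.

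In the PERK and ATF4 arm, which slows translation and then turns on amino acid supply and cell death genes, 1 of 11 rose (9.09%, against 4.58% of all genes). DDIT3, which encodes the death-promoting factor CHOP, read 6.44, 6.34 and 6.22 in control and 6.87, 6.71 and 6.67 in PRL-3 arrays (log2 intensity). The groups were apart, with a difference of 0.42 ± 0.088, 1.33-fold, and adjusted p = 0.0271 in limma. The DDIT3 call was lost without control 2 (adjusted p = 0.11), PRL-3 4 (0.11) or PRL-3 6 (0.0629). PPP1R15A, which encodes GADD34 and restarts translation, lay higher in all PRL-3 arrays but did not pass (0.24, adjusted p = 0.11, limma). ATF4 (0.08), EIF2AK3 (0.07) and TRIB3 (0.13), an inhibitor of ATF4 and CHOP, overlapped between the groups (adjusted p = 0.667, 0.706 and 0.442, limma). Of the other sensors and the proteases that process them 0 of 10 passed. At an unadjusted p under 0.05 in limma 1 of the 10 lay higher and 1 lower, where 10.6% and 9.6% of all genes did.

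The largest differences among these further genes were those of TUSC3, GPX8 and SEC61A2. TUSC3, a redox-active subunit of the oligosaccharyltransferase that attaches N-glycans, read 6.94, 6.84 and 6.82 in control and 8.35, 8.58 and 8.47 in PRL-3 arrays (log2 intensity). It was 3.03-fold higher (log2 difference interval 1.42 to 1.79, adjusted p = 4.88e-05, limma) and passed with any single array left out. It was the only one of 18 genes of N-glycosylation and glycoprotein folding that passed (5.56% rose, against 4.58% of all genes). GPX8, a peroxidase of the ER, read 5.24, 5.55 and 5.37 in control and 6.56, 6.36 and 6.46 in PRL-3 arrays. On these values GPX8 was 2.11-fold higher (adjusted p = 0.000746, limma). With an offset of 32 before the log its difference was 0.70 in place of 1.07, so the fold depends on how low intensities are treated, and no detection call tells whether the control arrays were above background. Among 27 further chaperones and foldases 4 rose (14.8%, against 4.58% of all genes), GPX8 together with the prolyl isomerase FKBP14 (0.43), the J protein DNAJC1 (0.38) and the peroxiredoxin PRDX4 (0.30), all log2 differences. Of these, FKBP14, DNAJC1 and PRDX4 lost their calls without control 2 (adjusted p = 0.0996, 0.0858 and 0.165), PRL-3 4 (0.0952, 0.0874 and 0.157) or PRL-3 6 (0.0766, 0.104 and 0.137). DNAJC1 also lost it without control 1 (0.0871), and PRDX4 without control 1 (0.103) or PRL-3 5 (0.066). Without both control 1 and PRL-3 5 the adjusted p was 0.0552 for DNAJC1 and 0.103 for PRDX4. PRDX4 was lost after quantile normalization (0.071) and with the intensity trend (0.0855) too.

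SEC61A2, a close relative of SEC61A1, read 8.29, 8.45 and 8.42 in control and 9.22, 9.13 and 9.22 in PRL-3 arrays (log2 intensity). The groups lay far apart, at 1.75-fold (0.81 ± 0.073, adjusted p = 0.000822, limma), with calls whichever array was left out. SSR3, like SSR1 a subunit of TRAP, read 8.85, 8.90 and 8.91 in control and 9.44, 9.21 and 9.56 in PRL-3 arrays. SSR3 was 1.43-fold higher (0.52 ± 0.096, adjusted p = 0.0168, limma), and lost its call without control 1 (adjusted p = 0.0517), control 2 (0.0784), PRL-3 4 (0.0804) or PRL-3 6 (0.0623). These 2 were the calls among 18 translocon and signal peptidase genes (11.1% rose, against 4.58% of all genes). TRAM1, a membrane protein beside the channel that was filed in the degradation list, read 10.15, 10.05 and 10.00 in control and 9.71, 9.81 and 9.76 in PRL-3 arrays. It was the only one of the 109 that fell (-0.30, adjusted p = 0.0398, limma). It was lost without control 1 (0.125), control 2 (0.134), PRL-3 4 (0.159), PRL-3 5 (0.0548) or PRL-3 6 (0.133), and without both control 1 and PRL-3 5 (0.104), as well as after the shift to 1 median (0.0611), with the intensity trend (0.0587) and with the unequal-variance test (0.179). Of 5 ER-phagy receptors 0 passed, and all 5 differences lay below 0. An unadjusted p under 0.05 in limma was found for 1 of them, where 9.6% of all genes lay below 0 at that threshold. Over all genes 45.1% of differences lay above 0.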

How the data were processed

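Total RNA of the 6 TF-1 samples was turned into biotin-labelled cDNA and read on arrays, per the labels' protocols. The authors deposited a table of linear intensity values of 28869 probe sets; summarisation, background correction and normalization are not given in the sources used here. If arrays were normalized to each other, differences are relative to the bulk of genes. The log2 of each intensity was taken with no offset. Of the probe sets, 19310 carried exactly 1 symbol in the platform annotation, 1752 several and 7807 none; symbols were checked against RefSeq genes of GRCh38.p14. The groups were set against each other with lmFit and eBayes of limma 3.58.1 (R 4.3.3). The code was tried on simulated data with independent noise in each array, without the patterns that real arrays share. That trial checks the code and tells nothing about the genes that did not pass. Errors after differences are moderated standard errors, and intervals are 95%. Exact permutation of 3 against 3 arrays cannot give a p below 0.1, so none is given. The precision is limited by the number of arrays.

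The gene list, the other lists, the motifs, the rule for named genes and the alternatives were chosen with earlier results of these data known. Values in every array are given for listed genes that passed and, whatever their result, for HSPA5, HSP90B1, XBP1, ATF6, ERN1, DNAJB9 and HERPUD1; of each further list up to 4 passing genes with the largest differences are named, with EIF2AK3, ATF4, DDIT3, PPP1R15A and TRIB3; in addition DNAJC3, ERO1A, OS9 and SELENOK were given so after their values were seen. Alternatives were other array scaling, variance models, array weights, filters on dim genes, an offset, averaged probe sets, an unequal-variance test, and arrays left out. Figures were drawn with matplotlib 3.10.9.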

Additional observations from a re-analysis of the deposited data

How the results depend on the processing

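The count of listed genes that rose, 2 on all arrays, was 1 after quantile normalization, 1 with an intensity trend and robust variances, 8 with array weights and 0 with the unequal-variance test; leaving out 1 array gave 0 to 1. The count that fell, 1 on all arrays, was 0 after a shift to 1 median, 0 with the trend, 2 with array weights, 0 with the offset and 0 with the unequal-variance test, and 0 to 1 with 1 array left out. With array weights those that rose were DNAJB9, DNAJC3, ERO1A, ERO1B, HERPUD1, MANF, SDF2L1 and SELENOK; the weights come from the spread of these same arrays. Of the further pathway genes, array weights called 22 higher and 14 lower and the unequal-variance test 0 and 0, while leaving out 1 array gave 3 to 9 higher and 0 to 1 lower. Their fallen genes were 2 after quantile normalization, 0 after the shift to 1 median, 0 with the trend and 3 with the offset. The median difference over the list ran from 0.0195 (without control 3) to 0.0785 (without control 2) in the alternatives that give it. Over all 18377 genes 842 rose and 571 fell on all arrays. These counts were 846 and 642 after quantile normalization, 859 and 480 after the shift, 763 and 489 with the trend and 789 and 566 with the offset. Array weights gave 2122 and 2303, and the unequal-variance test 7 and 4. Leaving out 1 array gave 388 to 792 higher and 178 to 747 lower.

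Of the 35 genes, 22 kept their sign in all alternatives that included them and 13 did not, none of them called on all arrays. With array weights CALR turned to -0.013, CANX to 0.046, PDIA6 to -0.014, EDEM2 to -0.12, SEL1L to -0.011, SELENOS to -0.025 and SSR1 to 0.039. HYOU1 turned to 0.0034 after the shift to 1 median, PDIA6 to -0.012 after quantile normalization, and P4HB to 0.076 with the mean of its probe sets. Without both control 1 and PRL-3 5, CANX turned to 0.013 and CRELD2 to 0.014. With 1 array left out the range was -0.044 to 0.074 for ERN1, -0.13 to 0.064 for HYOU1, -0.020 to 0.13 for CALR, -0.043 to 0.030 for CANX, -0.20 to 0.13 for P4HB, -0.11 to 0.0080 for CRELD2, -0.10 to 0.069 for EDEM2, -0.068 to 0.012 for DERL1, -0.066 to 0.065 for SELENOS, -0.081 to 0.054 for SSR1 and -0.060 to 0.068 for WFS1. The cause of these turns was not tested. The labels number the arrays 1 to 6, and no paired analysis was possible because the groups share no replicate number.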

Other observations

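The exact ERSE or ERSE-II stood in the promoter windows of 36 tested genes, of which 11 belong to the list. Of all 36, 3 rose with PRL-3 and 0 fell in limma: ERO1B, HERPUD1 and ZNF143, a zinc finger transcription factor with an ERSE-II, which differed by 0.49 (adjusted p = 0.0197) and was named after its value was seen. ERO1B and HERPUD1 are the listed genes described above, so ZNF143 was the only carrier outside the list that passed. Of all genes tested 4.58% rose and 3.11% fell, and so few carriers allow no reading against these shares. Further carriers with a role in the ER did not pass: SERP1, which stabilises membrane proteins at the translocon, differed by -0.07 (adjusted p = 0.718), FICD, which modifies BiP, by -0.08 (adjusted p = 0.58), and ALG12, a mannosyltransferase of N-glycan synthesis, by -0.0066 (adjusted p = 0.981).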
